A study of Homo sapiens with 2 samples.

Results

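The genes described here are 36 members of the cellular response to low oxygen and of glycolysis, out of 36601 genes in the annotation of the deposited matrices. They were named as a pathway list and matched by symbol, and all 36 were found. The list holds 3 subunits of the hypoxia-inducible factors (HIF1A, EPAS1 and ARNT), 2 prolyl hydroxylases (EGLN1 and EGLN3), 15 targets outside glycolysis, and 16 genes of glucose entry, glycolysis and its exits. They were measured by droplet single-cell RNA sequencing of 3′ ends in HepaRG, an established human hepatic cell line whose cultures hold hepatocyte-like cells beside biliary-like and less differentiated ones. The cells came terminally differentiated from the distributor, stayed 7 days in culture, and then received the vehicle alone, 0.1% dimethyl sulfoxide, for 24 h. Both libraries belong to this 1 group, with an input of 10000 cells each, so there is no comparison of treatments; stressed cultures were not analysed here. The dissociation mixture contained actinomycin D, which blocks transcription, and anisomycin, which blocks translation. The labels give both libraries the same biological replicate number while their titles number them 1 and 2, so they may be technical replicates. SDs rest on the difference between the libraries. The p-values rest on how far the differences between cell classes vary from 1 library to the other, and on spread shared across genes. The test (edgeR) draws each gene's spread toward a trend over all genes tested. Very small p-values therefore lean on that shared estimate and not on the agreement of 2 libraries alone.

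A hypoxia-inducible factor is a pair of an oxygen-regulated alpha subunit, HIF1A or EPAS1 (HIF-2 alpha), and the stable partner ARNT. With oxygen present, the prolyl hydroxylases EGLN1 and EGLN3 mark the alpha subunit for destruction through the VHL ubiquitin ligase. With little oxygen the pair accumulates, mostly without a change in HIF1A mRNA, binds a short core sequence in DNA, and turns on glucose uptake, glycolysis, lactate export, vessel growth, acid handling and mitophagy. EGLN3 is itself a target and so part of a feedback. In the liver lobule oxygen falls from the portal to the central side, and hepatocytes differ along it in glucose handling.

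The HIF core is RCGTG, searched here as ACGTG or GCGTG on either strand, so that CACGT and CACGC are its other-strand spellings and CACGTG holds an ACGTG match on each strand. RefSeq promoter windows (GRCh38.p14) were found for 33 of the 36 members. NDRG1, BNIP3L and VEGFA have no entry in the table used. At least 1 window with the core was present for 30 of 33 members (90.9%), against 52.4% of 27305 genes in the table. ACGTG alone was present for 20 of 33 (60.6%), against 24.9%. Counted per window, which does not favour genes with several starts, 40 of 51 member windows (78.4%) held a core, against 48.4% of 35116. The members without one in these windows were ARNT, EGLN3 and P4HA2. The core is short and a match is not a binding site.

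The 250 bases before the RefSeq start follow for 5 members, read 5′ to 3′ on the gene's strand, with every core match in capitals. CA9, BNIP3, ANGPTL4 and FAM162A are shown because they rank among the members whose levels differ most between cells below, and EGLN3 because it moves with them but has no match in its window; they were chosen after their values were seen. CA9 lies at chr9:35673678-35673927 on the plus strand, BNIP3 at chr10:131981924-131982173 on the minus strand, ANGPTL4 at chr19:8363905-8364154 on the plus strand, FAM162A at chr3:122383932-122384181 on the plus strand and EGLN3 at chr14:33951075-33951324 on the minus strand.
CA9: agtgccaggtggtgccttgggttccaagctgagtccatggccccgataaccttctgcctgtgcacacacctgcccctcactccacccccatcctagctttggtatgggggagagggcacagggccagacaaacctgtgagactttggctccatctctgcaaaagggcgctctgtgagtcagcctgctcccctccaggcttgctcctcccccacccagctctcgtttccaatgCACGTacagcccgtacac
BNIP3: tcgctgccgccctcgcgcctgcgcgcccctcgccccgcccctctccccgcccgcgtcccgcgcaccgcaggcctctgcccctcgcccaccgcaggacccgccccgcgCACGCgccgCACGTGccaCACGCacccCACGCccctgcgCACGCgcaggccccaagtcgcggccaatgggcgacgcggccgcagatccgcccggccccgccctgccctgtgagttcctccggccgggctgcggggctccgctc
ANGPTL4: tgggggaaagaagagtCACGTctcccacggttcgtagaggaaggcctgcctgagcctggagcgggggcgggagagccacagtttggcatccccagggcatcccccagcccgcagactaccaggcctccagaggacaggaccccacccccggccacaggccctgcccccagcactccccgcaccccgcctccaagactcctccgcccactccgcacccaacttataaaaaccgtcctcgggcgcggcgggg
FAM162A: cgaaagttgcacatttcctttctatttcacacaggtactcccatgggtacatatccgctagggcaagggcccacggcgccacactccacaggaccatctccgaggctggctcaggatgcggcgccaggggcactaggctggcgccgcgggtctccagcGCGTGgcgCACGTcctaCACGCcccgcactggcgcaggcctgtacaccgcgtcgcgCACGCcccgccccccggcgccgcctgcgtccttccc
EGLN3: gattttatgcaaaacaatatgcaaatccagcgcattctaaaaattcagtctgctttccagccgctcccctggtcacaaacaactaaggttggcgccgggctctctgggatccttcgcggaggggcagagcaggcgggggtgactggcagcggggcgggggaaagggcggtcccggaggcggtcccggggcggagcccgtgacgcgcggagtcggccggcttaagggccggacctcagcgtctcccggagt
CA9 held 1 match, 18 bases before its start. BNIP3 held 6 matches in 5 stretches, between 143 and 104 bases before its start, of which the capital run CACGTG is a match on both strands. ANGPTL4 held 1 match, 234 bases before its start. FAM162A held 4, at 92, 84, 75 and 36 bases before its start.

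Library 1 held 4591 cell barcodes and 85475317 transcript counts (unique molecular identifiers, UMIs), and library 2 held 4998 and 57246647. Barcodes under 500 genes or 1000 UMIs, or over 25% mitochondrial UMIs, were dropped, which left 4454 and 4894 cells, and 7 barcode sequences occur in both libraries. Each library was split alone into 3 classes. ALB-high cells had at least 50 UMIs of albumin per 10000 and numbered 306 (6.87%, exact 95% binomial interval 6.14% to 7.65%) and 407 (8.32%, 7.56% to 9.13%); the intervals cover counting error only. COL3A1/SPARC/LUM/PDGFRB-high cells, COL3A1-set for short, were the top 20% by the mean ln(1 + UMIs per 10000) of COL3A1, SPARC, LUM and PDGFRB, less the ALB-high ones, and numbered 889 and 967. The remaining cells numbered 3259 and 3520. Median depth in UMIs per cell was 20653 and 12441 in ALB-high, 15663 and 9780 in COL3A1-set, and 17821 and 10413.5 in remaining cells.

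All 14 hepatocyte markers outside the rule were at least 2-fold higher in ALB-high than in remaining cells, with summed levels of 12005 and 11292 counts per 1000000 UMIs (CPM) against 989 and 1063. Some were low in ALB-high cells even so: APOA2 at 0.14 and 0.52 CPM, CYP3A4 at 1.56 and 1.04, AHSG at 2.69 and 2.44, and CYP2E1 at 2.83 and 3.83. The mesenchymal name held only in part for the COL3A1-set cells. Only 3 of 12 mesenchymal markers outside the rule were at least 2-fold higher there than in remaining cells (513 and 497 CPM summed, against 269 and 277). DCN was at 126 and 127 CPM against 31.1 and 31.6, and COL5A1 at 211 and 202 against 116 and 119. VIM was lower, at 0.99 and 0.39 against 2.97 and 3.15. THY1 was at 0 in both libraries and COL1A2 at 0 and 0.29 CPM. These 2 were also near 0 in remaining cells (0.06 and 0.05, and 0.03 and 0.02), so they do not tell the classes apart. The COL3A1-set cells are therefore called by their rule. The 6 biliary markers did not move as one. Their sum was 954 and 943 CPM in COL3A1-set cells, 607 and 615 in remaining and 345 and 371 in ALB-high cells, and nearly all of it was the keratin KRT19. SPP1 was at 104 and 83.7 CPM in ALB-high cells, against 7.03 and 12.1 in COL3A1-set and 13.1 and 11.4 in remaining cells. SOX9 was at 22.7 and 24.7 CPM in ALB-high cells, against 4.51 and 5.64 in COL3A1-set and 6.79 and 7.02 in remaining cells, so the ALB-high class carried these biliary genes beside its hepatocyte genes, and their part in the results was not tested. ALB-high cells also differed in state: 28.1% and 30.7% passed the limit for dividing cells against 65.1% and 66.9% of remaining cells, and the median mitochondrial share was 13.5% and 13.6% against 8.84% and 8.98%. Summed immune markers were at 14.3 and 14.1 CPM in ALB-high and 10.8 and 10.5 in remaining cells, and endothelial markers at 19.8 and 18.3 against 28.2 and 26.6.

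Over all cells GAPDH was the most abundant member at 1549 ± 49 CPM (SD, n = 2 libraries). Each UMI counts 1 transcript end, so no length correction applies, but capture can differ between genes. The next were ENO1 at 1222 ± 7.7, PKM at 1026 ± 32, MIF at 843 ± 0.52 and LDHA at 567 ± 8.7 CPM. HIF1A was at 399 ± 12 CPM and EPAS1 at 70.0 ± 0.19 CPM, so the mRNA of both alpha subunits was present without any imposed hypoxia. At the other end HK2, the hexokinase of many tumours, had 0.96 CPM. The libraries were close: of the 34 members at 5 CPM or more, the log2 ratio of library 2 to library 1 ran from -0.15 (PFKP) to 0.18 (ADM), with an SD of 0.07.

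**Figure D1:**
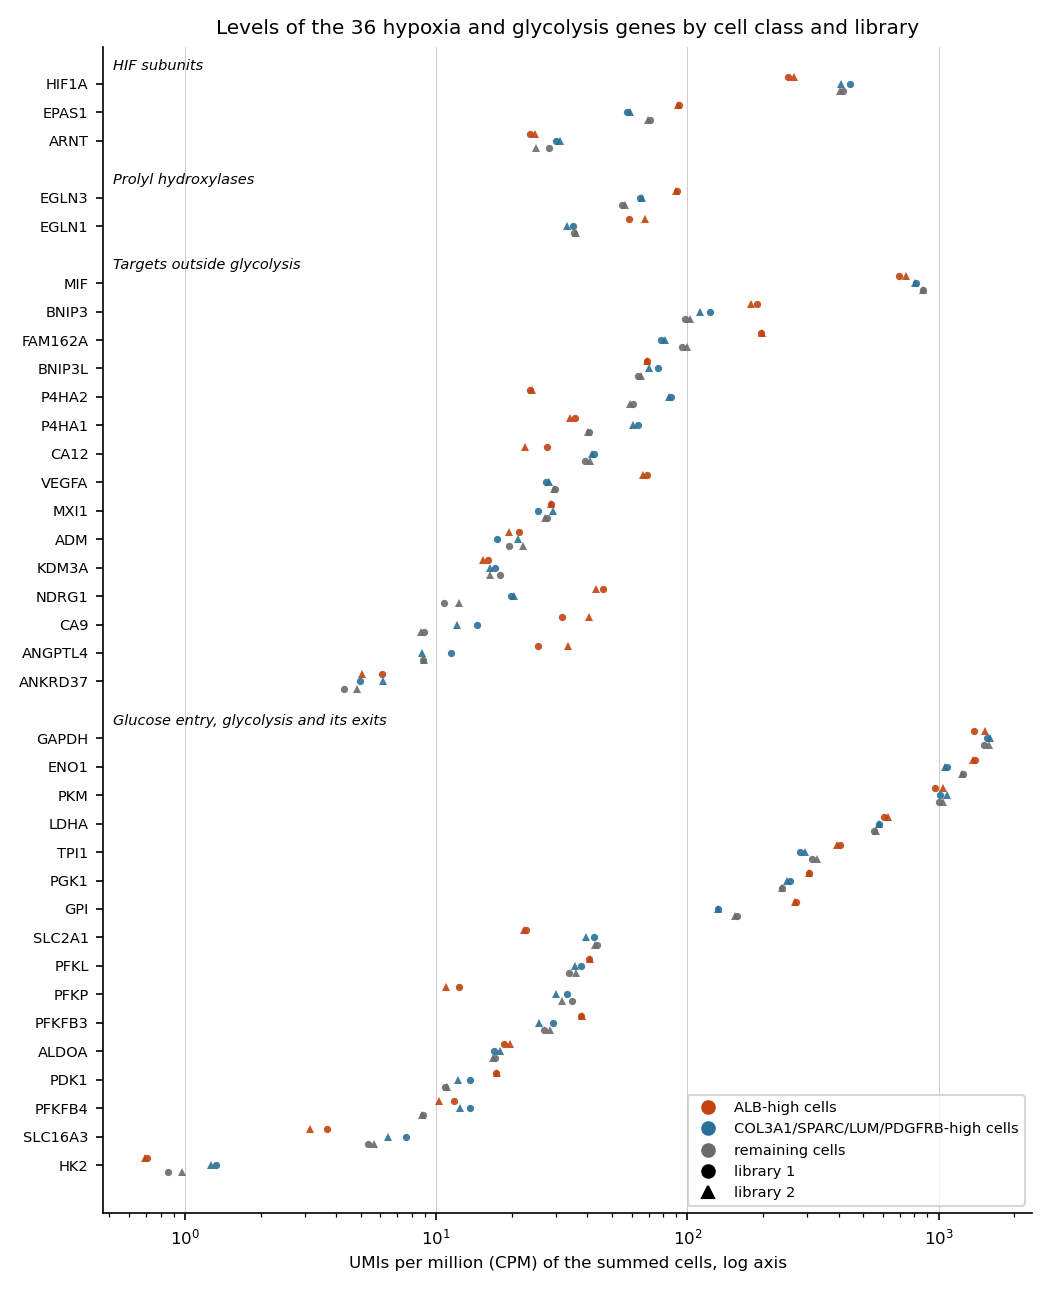
Level of each member in CPM (log axis) in both libraries, by cell class; every point is the summed UMIs of 1 class in 1 library. CA9, NDRG1, ANGPTL4 and VEGFA stand to the right in ALB-high cells (CA9 at 31.7 and 40.4 CPM against 8.92 and 8.68 in remaining cells), while GAPDH lies between 1385 and 1597 CPM in all of them.

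The first comparison asked whether these genes differ between hepatocyte-like cells and the rest of the culture. Most did, and more of them were higher than lower. Of the 36 members, 21 were higher in ALB-high than in remaining cells (58.3%), 7 were lower (19.4%) and 8 passed in neither direction. Over all 17198 genes tested, 28.0% were called higher and 27.8% lower, so the lower share of the members lay below the background and the higher share above it. The median log2 fold change was 0.30 over the members and -0.01 over all genes tested. With a change of at least 1.5-fold also asked for, 11 members were higher and 3 lower, with backgrounds of 15.5% and 13.4%. By role, 7 of 15 targets outside glycolysis were higher and 3 lower, 11 of 16 glycolysis genes were higher and 3 lower, both hydroxylases were higher, and the HIF subunits split. Calls were made with edgeR's quasi-likelihood test on UMIs summed per class and library, with library as a block. The limit was a Benjamini-Hochberg adjusted p below 0.05, and the 6 sums leave 2 residual degrees of freedom. Fold changes use edgeR's TMM factors, which rescale the UMI total of each sum. These were 0.94 and 0.93 in ALB-high and 1.03 and 1.02 in remaining cells. CPM use the totals alone, so fold changes of ALB-high cells lie above the ratios of their CPM. With dividing cells left out the counts of members were 19 higher and 6 lower, where 3503 and 3153 of all 14985 genes tested were. With mitochondrial genes left out they stayed at 21 and 7, where 4812 and 4790 of all 17185 genes were.

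**Figure D2:**
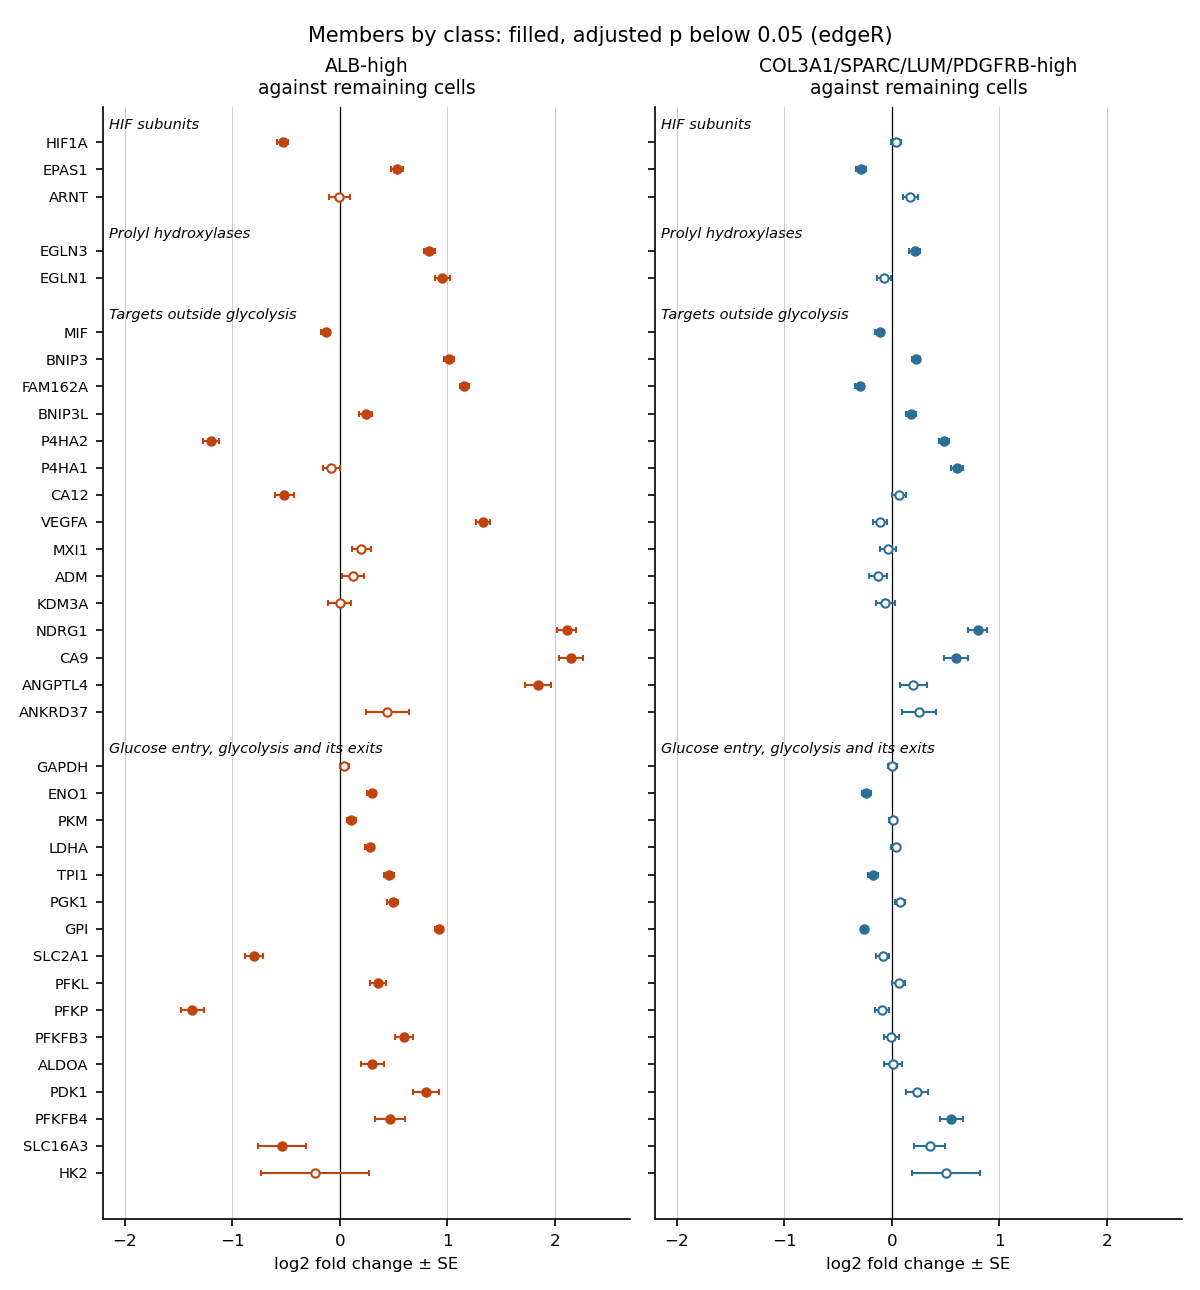
Log2 fold change of each member in ALB-high against remaining cells and in COL3A1-set against remaining cells, with bars of 1 SE from edgeR; filled points passed the adjusted p threshold. NDRG1 (2.11) and CA9 (2.15) lead on the ALB-high side, PFKP (-1.37) and P4HA2 (-1.20) lie lowest, and most members of the COL3A1-set contrast sit near 0.

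The genes of the oxygen sensor moved in different directions. HIF1A (chr14:61695513-61748259, GRCh38) stood at 250 and 266 CPM in ALB-high cells and 416 and 403 in remaining cells. Its level was lower in both ALB-high sums than in any other, by 0.53 ± 0.05 (SE) on the log2 scale (edgeR's quasi-likelihood test, adjusted p = 1.5e-10). EPAS1 (chr2:46293667-46386703) went the other way, with 92.5 and 92.1 CPM against 70.7 and 69.6, a log2 fold change of 0.53 ± 0.05 (edgeR, adjusted p = 6.3e-10). The groups did not overlap for either gene, so the ratio of the alpha subunits differed between the classes. Such non-overlap in CPM between ALB-high and remaining cells was common. Of the 36 members, 22 lay wholly above and 11 wholly below. The share over all genes was not counted, so non-overlap does not set a gene apart here. The common partner ARNT was at 23.7 and 24.7 CPM against 28.0 and 24.9 and passed in no contrast.

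EGLN1, the main oxygen sensor among the prolyl hydroxylases, was at 58.5 and 67.9 CPM in ALB-high cells and 35.3 and 36.1 in remaining cells, a log2 fold change of 0.95 ± 0.07 (edgeR, adjusted p = 5.3e-13). EGLN3 was at 90.7 and 89.8 CPM against 55.0 and 56.5 (0.83 ± 0.06; edgeR, adjusted p = 5.2e-14). Both hydroxylases were higher in both libraries with no overlap. The annotated span of EGLN3 overlaps SPTSSA on the same strand (75.3 and 78.3 CPM over all cells), so reads of the pair could be divided in a way that was not tested.

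Among the targets outside glycolysis, the largest differences were in CA9, NDRG1 and ANGPTL4. CA9, a membrane carbonic anhydrase, was at 31.7 and 40.4 CPM in ALB-high cells, 14.5 and 12.1 in COL3A1-set cells and 8.92 and 8.68 in remaining cells. Both ALB-high sums lay above all others, a 4.45-fold difference from remaining cells (log2 2.15 ± 0.11; edgeR, adjusted p = 1.2e-16). NDRG1, a stress-responsive gene first found as repressed by N-myc, was at 46.2 and 43.3 CPM against 19.9 and 20.4 in COL3A1-set and 10.8 and 12.3 in remaining cells. The 3 classes were ordered alike in both libraries, and ALB-high exceeded remaining cells 4.32-fold (log2 2.11 ± 0.09; edgeR, adjusted p = 1.2e-18). ANGPTL4, a secreted inhibitor of lipoprotein lipase that also responds to PPAR factors, was at 25.5 and 33.4 CPM against 8.84 and 8.95, 3.60-fold higher (log2 1.85 ± 0.12; edgeR, adjusted p = 4.3e-14).

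VEGFA, the growth factor for vessels, was at 69.0 and 66.5 CPM in ALB-high cells against 29.7 and 29.4 in remaining cells (log2 1.34 ± 0.07; edgeR, adjusted p = 4.3e-17). FAM162A, a mitochondrial protein linked to hypoxic cell death, was at 196 and 198 CPM against 94.8 and 99.4 (1.16 ± 0.04; edgeR, adjusted p = 3.1e-21). BNIP3, a mitophagy receptor, was at 189 and 179 CPM against 97.9 and 102 (1.02 ± 0.04; edgeR, adjusted p = 1.9e-18). For each of these genes both ALB-high sums lay above all 4 others, though how many of all genes did so was not counted. BNIP3L, the related receptor, was at 69.2 and 69.3 CPM against 63.4 and 65.4, with a log2 fold change of 0.24 ± 0.06 (edgeR, adjusted p = 0.0011).

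The other 8 targets were lower or did not pass. P4HA2, a subunit of the enzyme that hydroxylates collagen, was at 23.7 and 24.0 CPM in ALB-high cells against 60.8 and 59.2, and fell by 1.20 ± 0.08 on the log2 scale (edgeR, adjusted p = 4.2e-14). CA12, the other membrane carbonic anhydrase on the list, was at 27.5 and 22.6 CPM against 38.9 and 40.9, opposite to CA9 (-0.52 ± 0.09). The cytokine MIF was 0.13 lower on the log2 scale. ADM (adrenomedullin), ANKRD37, the histone demethylase KDM3A, P4HA1 and MXI1 had log2 fold changes from -0.08 to 0.44 and did not pass.

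Along glycolysis the steps differed. The glucose transporter SLC2A1 was lower in ALB-high cells, at 22.8 and 22.3 CPM against 43.5 and 42.8 (-0.80 ± 0.09; edgeR, adjusted p = 2.2e-09). GPI, the next enzyme after hexokinase, was higher, at 269.8 and 268.6 CPM against 157 and 155 (0.92 ± 0.03; edgeR, adjusted p = 2.9e-20). At phosphofructokinase the platelet form PFKP was at 12.3 and 11.0 CPM against 34.7 and 31.8, and fell by 1.37 ± 0.11 (edgeR, adjusted p = 2.1e-12), while the liver form PFKL was at 40.4 and 41.1 against 33.9 and 36.1 (0.36 ± 0.08). The liver form was thus above the platelet form in ALB-high cells in both libraries, and near it in the remaining cells.

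PFKFB3 and PFKFB4, which set the level of the phosphofructokinase activator, were 0.60 ± 0.08 and 0.47 ± 0.14 higher on the log2 scale. The middle and lower steps were modestly higher: PGK1 by 0.49, TPI1 by 0.45, ALDOA by 0.30, ENO1 by 0.30, LDHA by 0.28 and PKM by 0.11. PKM was higher only after TMM scaling, since its CPM were 971 and 1037 against 1005 and 1044 in remaining cells. PDK1, which restrains entry of pyruvate into mitochondria, was at 17.3 and 17.4 CPM against 10.9 and 11.1 (0.80 ± 0.12; edgeR, adjusted p = 9.9e-07). The lactate exporter SLC16A3 was lower by 0.54 ± 0.22 at 3.68 and 3.13 CPM. GAPDH (0.04 ± 0.04) and HK2 did not pass, and HK2 had about 1 CPM in every class.

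The small differences are the least settled. Scaled to library totals alone, GAPDH (-0.09) and PKM (-0.03) changed sign in ALB-high against remaining cells, and the median of all genes moved to -0.14. The calls of ALDOA, BNIP3L, MIF, PFKFB4, PFKL, PKM and SLC16A3 were each lost under at least 1 alternative other than a fold limit, and the other 21 of 28 held their direction and call. All 28 kept their sign in each library alone, but they were called from these same 2 libraries, so this adds no separate support. Pseudogenes named after GAPDH (62), BNIP3 (39), LDHA (6), PKM (5), TPI1 (4), ENO1 (4) and ALDOA (2) are annotated and could take reads from these genes. ALDOA overlaps a second annotated gene on the same strand (AC093512.2, 1.62 and 1.77 CPM) and PGK1 overlaps ATP7A; how reads were divided was not tested.

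Cell counts gave the same order for CA9. Unthinned, 25.5% and 22.4% of ALB-high cells and 12.2% and 7.98% of remaining cells had a CA9 UMI. After thinning each cell to 4000 UMIs, which left out 1 and 5 ALB-high and 57 and 57 remaining cells, the shares were 14.8% (exact 95% interval 11.0% to 19.2%) and 12.2% (9.16% to 15.8%) against 3.40% (2.80% to 4.09%) and 3.15% (2.59% to 3.78%). These intervals cover counting error among the cells of 1 library only. For VEGFA the thinned shares were 26.2% and 23.9% against 9.99% and 10.6%. No class here is known to lack these genes, so the part of free RNA in the lower shares was not measured.

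For some members the level already differed below the ALB limit. Cells were binned by ALB below 1, 1 to 10, 10 to 50 and at least 50 UMIs per 10000. FAM162A went along the bins from 78.9 through 107 and 173 to 196 CPM in library 1 and from 81.4 through 107 and 166 to 198 in library 2, with the larger part of the difference below the limit. GPI reached 269 and 252 CPM in the third bin and 270 and 269 in the fourth. NDRG1 had its step at the top instead: 13.3, 10.9, 9.6 and 46.2 CPM in library 1, and 15.0, 12.4, 10.7 and 43.3 in library 2.

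ANGPTL4 likewise went from 6.2 and 7.3 CPM in the third bin to 25.5 and 33.4 in the fourth, with 10.1 and 9.4 in the first. PDK1 was flat until the top bin (12.3 and 10.9, then 17.3 and 17.4). CA9 and BNIP3 were in between, with CA9 at 20.5 and 17.1 CPM in the third bin and BNIP3 at 115 and 121. HIF1A was lower at every step, from 446 and 436 to 250 and 266 CPM. Higher at each step in both libraries were EPAS1, EGLN3, CA9, VEGFA, FAM162A, GPI, PGK1 and LDHA. Lower at each step were HIF1A, P4HA1, P4HA2 and SLC16A3, and the other members did neither. How many of all genes do either was not counted. These bins are a description with no test; free RNA was not removed, and its part in the lower bins was not tested.

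**Figure D3:**
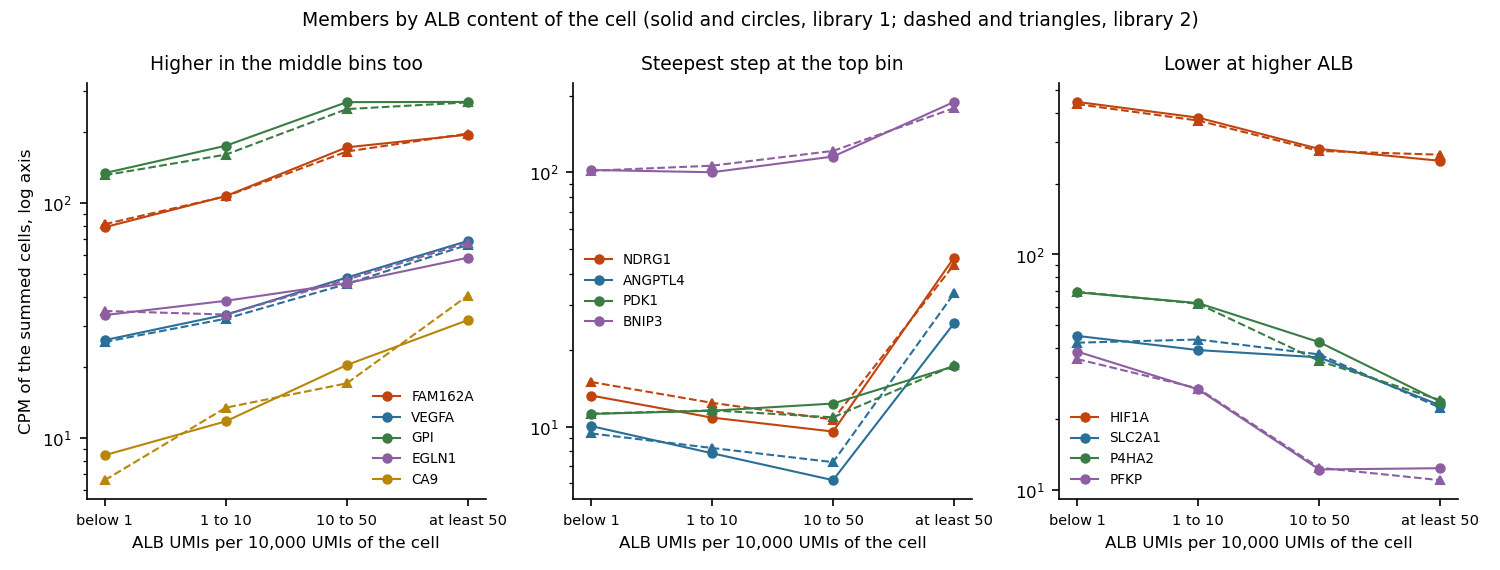
Member levels in CPM in 4 bins of ALB UMIs per 10000, one line per library. FAM162A and GPI are already high in the 10 to 50 bin, NDRG1 and ANGPTL4 stay low until the top bin (NDRG1 at 46.2 and 43.3 CPM there), and HIF1A, SLC2A1, P4HA2 and PFKP are lower in the top bin than in the lowest, at every step in both libraries only for HIF1A and P4HA2 among these 4.

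The COL3A1-set cells differed less from the remaining cells. Of the 36 members, 8 were higher, 6 lower and 22 passed in neither direction, where 14.1% of all genes tested were higher and 13.3% lower. With at least 1.5-fold asked for, 3 members were higher (NDRG1, P4HA1 and CA9) and 0 lower, against 5.18% and 3.12% of all genes. The members' median log2 fold change was 0.04. With DESeq2 in place of edgeR 4 members were higher, where 783 of all 17198 genes tested were. Of the 14 calls, 8 held under all alternatives other than the fold limit.

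P4HA1 and P4HA2, both subunits of the collagen prolyl hydroxylase, were the members of known matrix function, in cells chosen for COL3A1, SPARC and LUM. P4HA1 was at 63.6 and 60.7 CPM against 40.7 and 40.1 in remaining cells, 0.61 ± 0.05 higher on the log2 scale (edgeR, adjusted p = 1.2e-10). P4HA2 was at 85.7 and 84.5 CPM against 60.8 and 59.2, 0.49 ± 0.05 higher (edgeR, adjusted p = 9.6e-10). NDRG1 was 0.80 ± 0.09 higher, CA9 0.60 ± 0.11, PFKFB4 0.55 ± 0.11, and BNIP3, EGLN3 and BNIP3L between 0.18 and 0.22. FAM162A (-0.30), EPAS1 (-0.29), GPI (-0.26), ENO1 (-0.24), TPI1 (-0.17) and MIF (-0.11) were lower. By role 6 of 15 targets outside glycolysis were higher and 2 lower, while 1 of 16 glycolysis genes was higher and 3 were lower.

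Set directly against the COL3A1-set cells, ALB-high cells had 20 members higher and 7 lower (backgrounds 27.5% and 29.0%), and 12 and 5 at 1.5-fold or more (16.8% and 16.4%). The largest differences were P4HA2 (-1.68 ± 0.08), ANGPTL4 (1.65 ± 0.14), CA9 (1.56 ± 0.12), FAM162A (1.46 ± 0.05) and VEGFA (1.45 ± 0.08). P4HA1, which did not pass against remaining cells, was 0.69 ± 0.08 lower here (edgeR, adjusted p = 8.2e-09). The 3 contrasts share their class sums and are not independent of each other.

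Other genes of the pathway did not follow the members throughout. Of 23 other hypoxia targets tested, 8 were higher in ALB-high than in remaining cells and 7 lower (34.8% and 30.4%, backgrounds 28.0% and 27.8%). PPP1R3C, a glycogen-targeting subunit, was at 38.7 and 29.6 CPM against 11.8 and 11.4, and IGFBP1 and KDM4C were 1.33 ± 0.19 and 0.58 ± 0.06 higher on the log2 scale. STC2 (-1.40 ± 0.22) and IGFBP3 (-1.33 ± 0.09) were lower on the same scale. Of 11 other HIF regulators, CITED2 was higher (0.61 ± 0.08) and 4 were lower, led by ARNT2 at 10.3 and 6.79 CPM against 19.3 and 19.1, ELOC (-0.46 ± 0.05) and RBX1 (-0.42 ± 0.04).

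Other glycolysis genes were higher in 9 of 14 (64.3%) and lower in 0, where 28.0% of all genes tested were higher and 27.8% lower. ALDOC, the aldolase named for brain, was at 55.8 and 55.7 CPM against 18.4 and 19.0 (1.71 ± 0.07; edgeR, adjusted p = 1.9e-18), PDK2 was 1.33 ± 0.10 higher, and LDHB was 1.49 ± 0.46 higher at under 2 CPM. Of 8 liver glucose genes tested, 7 were higher (87.5%, background 28.0%) and 0 lower (27.8%), which describes the hepatocyte-like class. SLC2A2, the liver glucose transporter, was at 21.7 and 12.7 CPM against 2.23 and 2.85, opposite to SLC2A1, and G6PC1 was at 1.13 and 1.04 CPM against 0.02 and 0.02.

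The members also varied together from cell to cell, most in ALB-high cells. Pearson correlations of ln(1 + UMIs per 10000) were taken over the cells of 1 class in 1 library, between members with a UMI in at least 10% of cells; the cells of a library share its handling and differ in depth, so these are descriptions. In ALB-high cells (306 and 407 cells, 33 members, 528 pairs) the median correlation was 0.092 and 0.081, against 0.007 and 0.007 over all gene pairs that met the same limit. At 0.1 or more lay 47.5% and 42.2% of member pairs and 8.86% and 5.40% of all pairs. In COL3A1-set cells (31 members) the median was 0.046 and 0.027, against 0.006 and 0.005 over all gene pairs. In remaining cells (30 members) it was 0.018 and 0.009, against 0.008 and 0.006. The members thus lay near the background there in library 2. At 0.1 or more lay 8.51% and 5.29% of member pairs in remaining cells, and 1.63% and 0.73% of all pairs. CA9, ANGPTL4 and PFKFB4 did not reach the limit in remaining cells, so a common set was added after the values were seen. Over the 30 members measured in all 3 classes the median was 0.0768 and 0.0733 in ALB-high, 0.0448 and 0.0266 in COL3A1-set, and the same as above in remaining cells. Thinned to 4000 UMIs the medians over these 30 were 0.0279 and 0.0356 in ALB-high, 0.0210 and 0.0154 in COL3A1-set, and 0.00338 and 0.00282 in remaining cells.

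In remaining cells the 10 closest pairs were made up of abundant genes, mostly of glycolysis. GAPDH with ENO1 had 0.31 and 0.21 (0.11 and 0.10 when thinned), MIF with GAPDH 0.31 and 0.19, and ENO1 with LDHA 0.26 and 0.23. The others were TPI1 with ENO1 and with GAPDH, PKM with ENO1, FAM162A, GAPDH and GPI, and FAM162A with GPI, all between 0.14 and 0.27. Each of the 5 lowest pairs held PFKP or P4HA2, which were lower in ALB-high cells: GPI with PFKP (-0.16 and -0.11), FAM162A with PFKP (-0.15 and -0.10), P4HA2 with GPI and with FAM162A, and PFKP with PKM.

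In ALB-high cells the closest pairs, named after their values were seen, were targets outside glycolysis. CA9 with NDRG1 had 0.66 and 0.59 (thinned 0.39 and 0.47), BNIP3 with NDRG1 0.65 and 0.51 (0.28 and 0.31), and NDRG1 with ANGPTL4 0.52 and 0.56. The median over pairs of the 14 targets outside glycolysis measured there was 0.157 and 0.131. CA9 and ANGPTL4, which supply some of the strongest pairs, were not measured in the other classes. Over the 12 such targets measured in all 3 classes the median was 0.0977 and 0.0975 in ALB-high, 0.0524 and 0.0295 in COL3A1-set, and 0.0196 and 0.0118 in remaining cells. For the 13 glycolysis genes it was 0.0859 and 0.0645, then 0.0529 and 0.0253, then 0.0199 and 0.0182. When thinned, the glycolysis medians were 0.0226 and 0.0336 in ALB-high, 0.0256 and 0.0159 in COL3A1-set, and 0.00404 and 0.00842 in remaining cells. In library 1 the thinned glycolysis median was thus not higher in ALB-high than in COL3A1-set cells. For the 12 targets the thinned medians kept the order, at 0.0616 and 0.0551, then 0.0327 and 0.0126, then 0.00066 and 0.00314. Unthinned, 0% of the pairs of these 12 targets in remaining cells reached 0.1 in either library, against 1.63% and 0.73% of all gene pairs. Of the glycolysis pairs, 25.6% and 19.2% did.

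**Figure D4:**
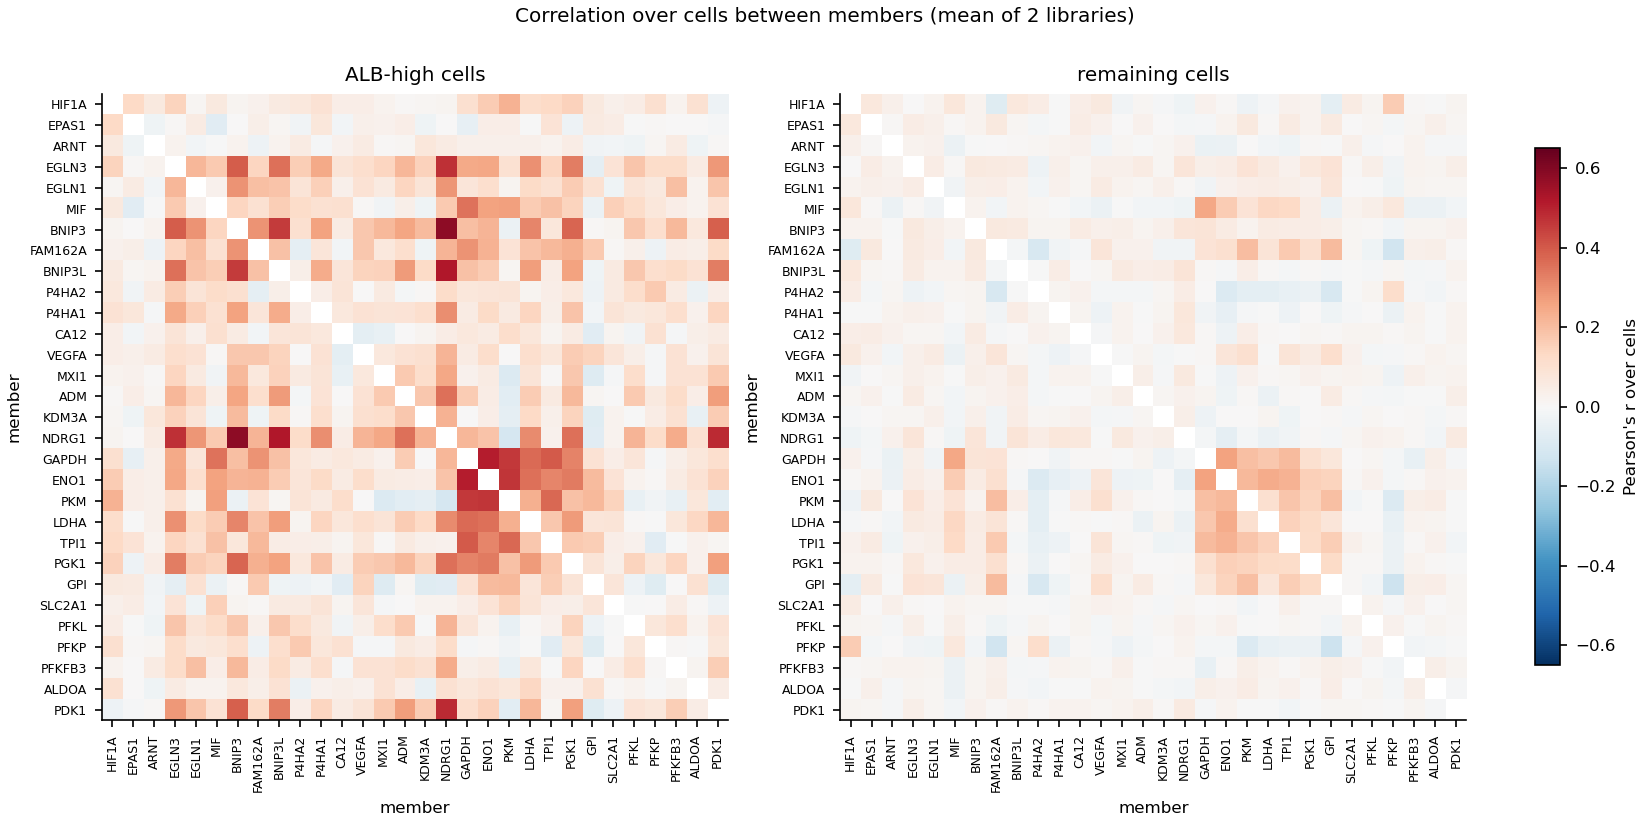
Pearson correlation over cells between members, mean of the libraries, in ALB-high and in remaining cells, on 1 colour scale. Only members measured in both classes are drawn, so CA9, ANGPTL4 and PFKFB4 are absent. BNIP3 with NDRG1 stands out in ALB-high cells and is faint in remaining cells (0.08 and 0.08). The visible block in remaining cells is GAPDH, ENO1, TPI1, LDHA and PKM.

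Each cell was given a target score, the mean z-score of the targets outside glycolysis that reached the 10% limit (14 in ALB-high, 12 in remaining cells), with the gene in question left out. In ALB-high cells NDRG1 followed it most closely (0.73 and 0.69), then CA9 (0.66 and 0.60), BNIP3 (0.63 and 0.58), ANGPTL4 (0.54 and 0.53), BNIP3L (0.55 and 0.49) and EGLN3 (0.52 and 0.50). Of the metabolic members PDK1 (0.45 and 0.45), PGK1 (0.51 and 0.38), PFKFB4 (0.45 and 0.37) and LDHA (0.41 and 0.32) came next. EPAS1 (0.01 and 0.05), PKM (0.02 and -0.01) and GPI (-0.03 and -0.04) did not move with it, although EPAS1 and GPI were higher in the class as a whole. The score's own correlation with log UMIs was -0.17 and 0.11, with the mitochondrial share -0.02 and -0.13, with log ALB 0.32 and 0.32, and with the summed proliferation markers -0.20 and -0.16; their part in the pairs was not tested.

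The other hypoxia targets, which are not in the score, followed it in ALB-high cells. Of the 18 measured there, 15 had a mean correlation of 0.2 or more (83.3%, median 0.25), against 222 of 10643 genes outside the members (2.09%). The share was 1 of 10 for other HIF regulators, 1 of 10 for other glycolysis genes and 0 of 5 for liver glucose genes. TMEM45A (0.58 and 0.52), PLOD2, a collagen lysyl hydroxylase (0.54 and 0.43), and HILPDA, a lipid droplet protein (0.54 and 0.35), were highest among the listed targets and are named after their values were seen. The score was followed in COL3A1-set cells too, by NDRG1 (0.40 and 0.29), EGLN3 (0.38 and 0.28) and BNIP3 (0.36 and 0.24) among the members. There 2 of 20 other hypoxia targets reached 0.2 (median 0.11), against 8 of 10016 genes outside the members. In remaining cells 0 of 20 reached 0.2 (median 0.05), and 0 of 10173 genes outside the members; the members were led by PKM (0.13 and 0.11), BNIP3 (0.13 and 0.11) and NDRG1 (0.13 and 0.11). The 15 genes outside the members that followed the score there most closely were PLIN2, the lipid droplet coat protein (0.18 and 0.13), and SERF2, CIDEC, CTSD, CP, MT1X, CST3, CES1, FN1, JAK1, TFPI, FTH1, C1S, FTL and TSHZ2; these correlations are weak.

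The ALB-high cells were then set out by this score, a split chosen after the correlations were seen and given without a test, since the genes that pick the cells are correlated with those described. For each gene in the score the top cells were picked anew without that gene, so the cells behind these genes differ. Genes outside the score, such as PDK1, GPI, HIF1A and EPAS1, used the full score. So did the depth, ALB and dividing values below. The top 25% (76 of 306 and 102 of 407 cells) had NDRG1 at 172 and 130 CPM, and the other ALB-high cells 11.1 and 13.8. The remaining cells, from which no top-scoring cells were taken, had 10.8 and 12.3. CA9 was at 103 and 105 CPM against 11.8 and 16.7, and ANGPTL4 at 63.0 and 83.1 against 15.0 and 16.0. PDK1 was at 44.3 and 33.4 CPM against 10.1 and 11.8. For these genes the level was thus uneven among ALB-high cells. Part of the contrast is built into the split, and the remaining cells were not split alike. How much of the excess over remaining cells the top cells carried was therefore not tested.

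VEGFA, FAM162A and GPI had another pattern. VEGFA was at 86.5 and 86.2 CPM in the top cells and still at 64.3 and 59.5 in the others, above the 29.7 and 29.4 of remaining cells. FAM162A was at 238 and 214 against 184 and 192 CPM, and GPI had ratios of 1.11 and 0.992. BNIP3 was at 402 and 323 CPM against 129 and 127, with the lower value still above the 97.9 and 102 of remaining cells. HIF1A had ratios of 1.26 and 1.09 and EPAS1 of 0.902 and 0.943, so the alpha subunits' mRNA differed little across the split. Median UMIs were 17054 in the top cells against 21515.5 in library 1 and 13357 against 12227 in library 2, and median ALB was 221 against 131 and 160 against 117 UMIs per 10000. The dividing share was 17.1% against 31.7% and 28.4% against 31.5%.

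**Figure D5:**
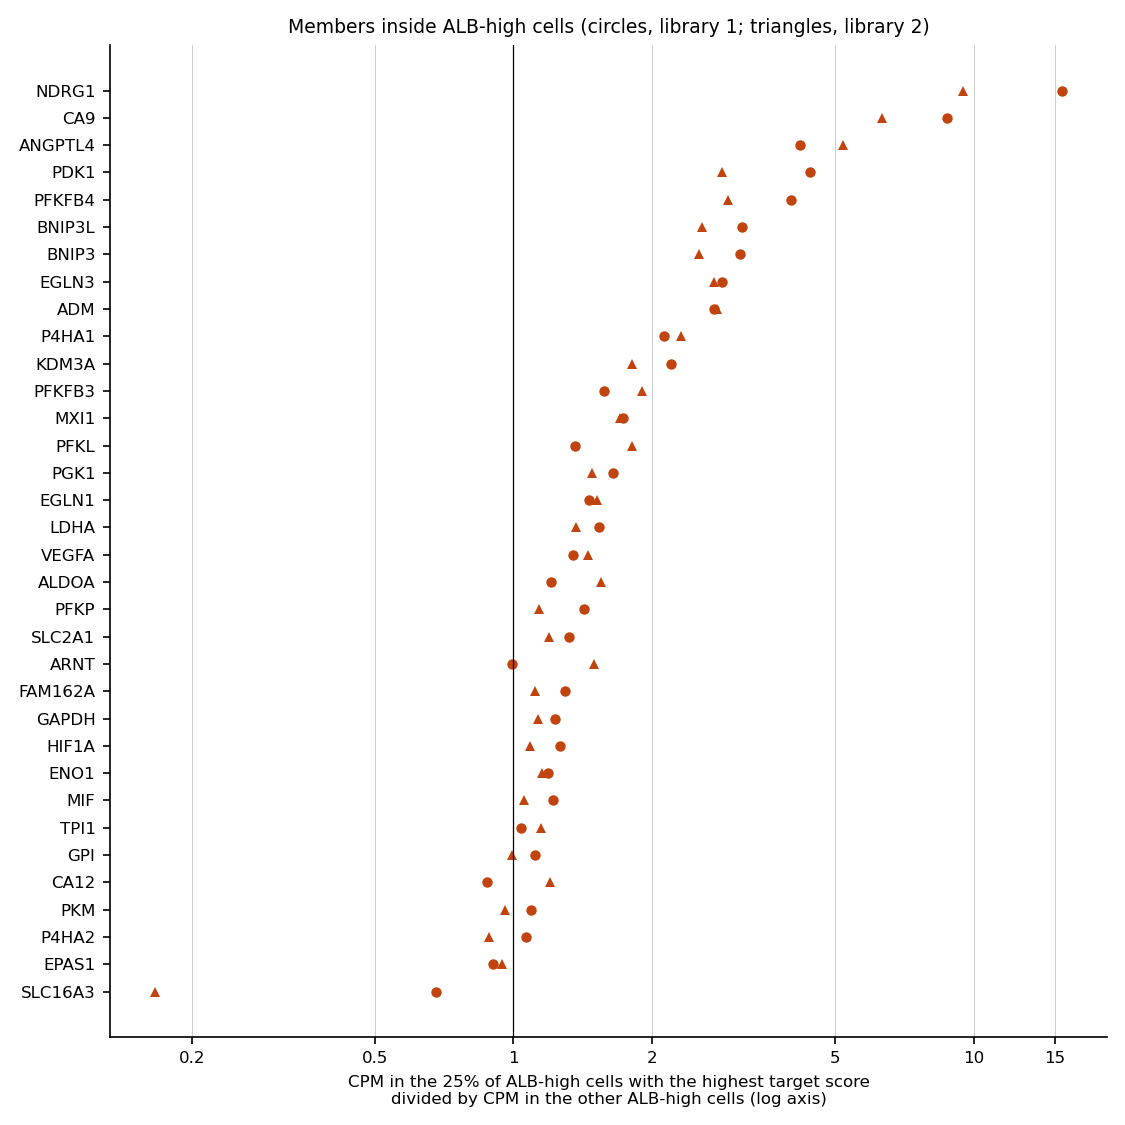
Ratio of each member's level in the top 25% of ALB-high cells by target score to its level in the other ALB-high cells, in both libraries, for members at 5 CPM or more (log axis). For a gene in the score the top cells were picked without it. NDRG1 (15.5 and 9.46) and CA9 (8.76 and 6.31) lie far to the right, while VEGFA (1.35 and 1.45), FAM162A (1.30 and 1.12) and GPI (1.11 and 0.992) lie near 1.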

How the data were processed

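The deposited matrices hold raw UMI counts per gene and cell barcode, made by the authors with Cell Ranger 7.0.0, per the file headers; STAR and GRCh38 are listed per the submitters' processing notes. Not given in the sources used here: the annotation release, how introns were handled, and how barcodes were filtered. The 12 antibody features had 0 UMIs and were not used. Free RNA was not removed. No doublet caller was run; the 5% of cells with most UMIs, and the 2 and 12 cells meeting both class rules, were left out as alternatives. Counts were summed per class and library and tested with edgeR 4.0.16 (TMM, filterByExpr, quasi-likelihood F test, library as a block, Benjamini-Hochberg over 17198 genes). The library is a block because all classes come from the same 2 libraries. The sums share 1 estimate of spread, and scripts were tested on simulated data. DESeq2 1.42.0 was an alternative. Analyses used R 4.3.3, Python 3.11.15, numpy 2.4.6, pandas 2.3.3 and scipy 1.17.1; positions are from GENCODE 29. Dividing cells had 5 or more UMIs per 10000 over 11 proliferation genes. The members and lists were chosen with earlier results of these data known. Besides the members, the text names up to 3 called genes at each end of every other list in ALB-high against remaining cells, the 15 genes outside the members that follow the target score in remaining cells, and the 10 highest and 5 lowest member pairs there. Some genes that this rule selects are not reported here.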

Additional observations from a re-analysis of the deposited data

How the results depend on the processing

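With at least 1.5-fold asked for beside the adjusted p, members called changed to 11 higher and 3 lower in ALB-high against remaining cells, 3 higher and 0 lower in COL3A1-set against remaining cells, and 12 higher in ALB-high against COL3A1-set cells. DESeq2 gave 4 higher in COL3A1-set against remaining cells, with 783 and 721 genes called over the table where edgeR called 2427 and 2293. All other counts of members stayed within 1.5 times. With no replicate block the counts were 20 higher and 6 lower in ALB-high against remaining cells, and the calls of MIF and PKM were lost. Of all 17198 genes, 4743 were higher and 4690 lower in that setting. Library totals alone gave 3682 genes higher and 6329 lower in ALB-high against remaining cells in place of 4816 and 4780, and 3578 and 6644 against COL3A1-set cells in place of 4725 and 4990. With library totals alone, signs changed for GAPDH (-0.0943) and PKM (-0.0299) against remaining cells and for GAPDH (-0.12) and PKM (-0.0584) against COL3A1-set cells. With ALB-high set at 100 UMIs per 10000 PKM was at -0.0483 against remaining and -0.049 against COL3A1-set cells, and with dividing cells left out MXI1 was at -0.12 against COL3A1-set cells. For these the cause was not tested.

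Median member correlations in ALB-high cells were 0.0709 (library 1) and 0.0664 (library 2) by Spearman, 0.0372 and 0.0406 when thinned, 0.104 and 0.108 with dividing cells left out, and 0.0768 and 0.0733 over the members measured in all 3 classes, a setting added after seeing the data. In COL3A1-set cells of library 1 they were 0.0218 when thinned and 0.0649 with dividing cells left out. In remaining cells they were 0.00338 and 0.00282 when thinned, and 0.0160 by Spearman in library 2. No count of called members could be given without 1 library, since no residual degrees of freedom are left. The called members kept their sign in each library alone (28 of 28, 14 of 14 and 27 of 27). Being called from these same libraries, they could hardly do otherwise. HK2 was not tested after thinning or with the top 10% rule.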
